A study of Mus musculus with 32 samples.

Results

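Glycogen metabolism was followed through 9 genes, chosen by name, of the 47643 genes in the count table: Gys1, Gys2, Gbe1 and Ugp2 of synthesis, Pygl and Pygb of breakdown, and Ppp1r3b, Ppp1r3c and Ppp1r3g, which steer protein phosphatase 1 to glycogen. The choice was made with earlier results of these data known. RNA came from the liver and the epididymal fat (eWAT) of male C57BL/6 mice (C57BL/6J in the study's methods) that were 10 weeks old. The mice drank vehicle (veh) or corticosterone (cort) for 7 days and ate a normal protein diet (NPD, 20% of energy as protein) or a high-protein diet (HPD, 60%), so the groups were Veh NPD and Veh HPD, and Cort NPD and Cort HPD. The HPD also held less carbohydrate, so that more protein and less carbohydrate cannot be told apart, and all mice were fasted before tissue was taken. Each group had 4 libraries per tissue, except liver Veh HPD with 3 after the study's removal of replicate 4. Bulk tissue was used, so that fewer cells of a type and less RNA per cell cannot be told apart.

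Glycogen is built from UDP-glucose, which the enzyme encoded by Ugp2 makes. Glycogen synthase lengthens the chains (Gys1 in muscle and most tissues, Gys2 in liver), the branching enzyme encoded by Gbe1 adds branch points, and glycogen phosphorylase (Pygl in liver, Pygb in brain) releases glucose 1-phosphate. Phosphorylation turns the synthase down and the phosphorylase up, and the Ppp1r3 proteins reverse this by bringing protein phosphatase 1 to the particle. Liver glycogen feeds blood glucose between meals, whereas the small store in fat serves the adipocyte, and glucocorticoids are named for their action on glucose and liver glycogen.

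The total count per library was 8933307 to 17447524 in the 15 liver libraries and 9794683 to 18057936 in the 16 eWAT libraries. The libraries read each transcript near its 3′ end, so that a count does not grow with gene length. Levels are in CPM, the count relative to the library's size after scaling with TMM factors, and fold changes are log2 with their standard error (SE). Calls of higher or lower needed an adjusted p (Benjamini-Hochberg, over all tested genes) under 0.05 in edgeR's quasi-likelihood test. The tested genes numbered 12391 in liver and 15187 in eWAT. The sum of 8 hepatocyte markers was 75090 to 247854 CPM in liver and 917 to 3997 CPM in eWAT, and that of 6 adipocyte markers was 27728 to 51249 CPM in eWAT and 22.5 to 84.4 CPM in liver. Some libraries stood apart. Liver Cort NPD replicate 3 held 493 CPM of 7 skeletal muscle markers, against 1.13 to 43.0 CPM in the other liver libraries. Liver Veh HPD replicate 1 held 96.0 CPM of 5 exocrine pancreas markers, against 0.0845 to 11.8 CPM in the other liver libraries used. In eWAT, Cort HPD replicate 4 held 5571 CPM of 8 epididymis and testis markers, of which Tnp1 was at 0, against 0 to 12.0 CPM in the others. Results that rest on these libraries are given with and without them.

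The members lie on 9 chromosomes of the mouse build GRCm38. They are Gys1 (ENSMUSG00000003865, chr7:45434844-45456619, plus strand), Gys2 (ENSMUSG00000030244, chr6:142422613-142473109, minus), Gbe1 (ENSMUSG00000022707, chr16:70313949-70569716, plus), Ugp2 (ENSMUSG00000001891, chr11:21321138-21371201, minus), Pygl (ENSMUSG00000021069, chr12:70190811-70231488, minus), Pygb (ENSMUSG00000033059, chr2:150786735-150831758, plus), Ppp1r3b (ENSMUSG00000046794, chr8:35375739-35388139, plus), Ppp1r3c (ENSMUSG00000067279, chr19:36731731-36736653, minus) and Ppp1r3g (ENSMUSG00000050423, chr13:35958839-35970388, plus). Exons of Gys1 overlap those of Ruvbl2 on the opposite strand, at the start of Gys1, and whether strand was used in counting is not given in the sources used here. Ruvbl2 had at most 146 counts in a library.

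RefSeq promoters were matched for 7 of the 9 members, as 8 entries (GRCm38.p6), and not for Gys2 and Ppp1r3b. The 250 bases before each start were searched on both strands for AGAACA (the core of the site bound by the glucocorticoid receptor), CACGTG (an E-box), TGACG (the core of the cAMP response element) and CCAAT (the CCAAT box). AGAACA was in 0 of the 8 entries, against 16.1% of 32851 mouse promoters, and no match says only that these letters are not in this window. TGACG was found 44 bases before the RefSeq start of Pygl, 132 before that of Pygb and 40 before that of Ppp1r3g (17.8% of promoters). RefSeq starts can differ from the gene coordinates given above. The windows of Pygl and Ppp1r3g and the second window of Ugp2 lie wholly inside the annotated gene. Of the Pygb window, 61 bases lie inside it. CACGTG was found 104 bases before the start of Ppp1r3c (6.02% of promoters). CCAAT was in Gys1 at 4 places and in Ugp2, Ppp1r3c and Ppp1r3g at 1 place each (33.8% of promoters). A match is a description, not a site. The stretches that follow are shown for 3 members, Gbe1 as called higher with cort on the NPD in both tissues, Ugp2 as differing between the tissues in its cort change on the HPD, and Ppp1r3c as the member with CACGTG in its window. Each runs 5′ to 3′ on the strand of its gene and ends before the annotated gene, with matches to the motifs in capitals (ATTGG is CCAAT on the other strand).
Gbe1, chr16:70313699-70313948, plus strand: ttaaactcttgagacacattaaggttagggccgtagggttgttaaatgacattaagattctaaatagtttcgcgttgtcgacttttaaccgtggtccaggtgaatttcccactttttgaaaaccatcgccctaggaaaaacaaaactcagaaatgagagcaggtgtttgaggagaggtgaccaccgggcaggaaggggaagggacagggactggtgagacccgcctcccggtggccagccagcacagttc
Ugp2, chr11:21371268-21371517, minus strand: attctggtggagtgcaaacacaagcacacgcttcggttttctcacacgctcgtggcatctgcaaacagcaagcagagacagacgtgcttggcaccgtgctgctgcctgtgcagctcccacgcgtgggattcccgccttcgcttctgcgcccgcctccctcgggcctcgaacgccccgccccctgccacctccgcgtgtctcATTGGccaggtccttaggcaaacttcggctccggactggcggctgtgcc
Ppp1r3c, chr19:36736654-36736854, minus strand: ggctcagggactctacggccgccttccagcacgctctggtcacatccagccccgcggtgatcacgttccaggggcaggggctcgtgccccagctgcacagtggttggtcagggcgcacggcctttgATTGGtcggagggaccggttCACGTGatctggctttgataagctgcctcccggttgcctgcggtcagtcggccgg

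Of the synthase genes, liver held mostly Gys2 and eWAT mostly Gys1, whereas Pygl was high in both tissues and Pygb only in eWAT. In Veh NPD liver, the order of the mean levels was Pygl (495 ± 64.4 CPM, SD, n = 4), Ugp2 (315 ± 69.9), Ppp1r3b (151 ± 32.7), Gbe1 (91.2 ± 9.49), Ppp1r3c (63.7 ± 10.5), Gys2 (46.5 ± 6.62), Pygb (2.22 ± 0.604), Ppp1r3g (1.43 ± 0.995) and Gys1 (0.920 ± 0.180). The libraries of Pygl and Ugp2 overlapped, as did those of Ppp1r3c and Gys2, of Pygb and Ppp1r3g, and of Ppp1r3g and Gys1, so that the order within these pairs is not larger than their spread. Pygb and Gys1 did not overlap. In Veh NPD eWAT, the order was Pygb (225 ± 38.0 CPM, SD, n = 4), Pygl (213 ± 22.6), Gbe1 (137 ± 23.9), Ugp2 (91.0 ± 11.4), Gys1 (48.3 ± 10.7), Ppp1r3c (20.1 ± 5.78), Gys2 (8.38 ± 2.03) and Ppp1r3b (1.70 ± 0.767), and of these neighbors only Pygb and Pygl overlapped. Ppp1r3g had 1 count in all 16 eWAT libraries together, so it was at the counting floor of 3 counts per library there and was not tested. The tissues were scaled separately, so levels set side by side between them are descriptive.

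**Figure D1:**
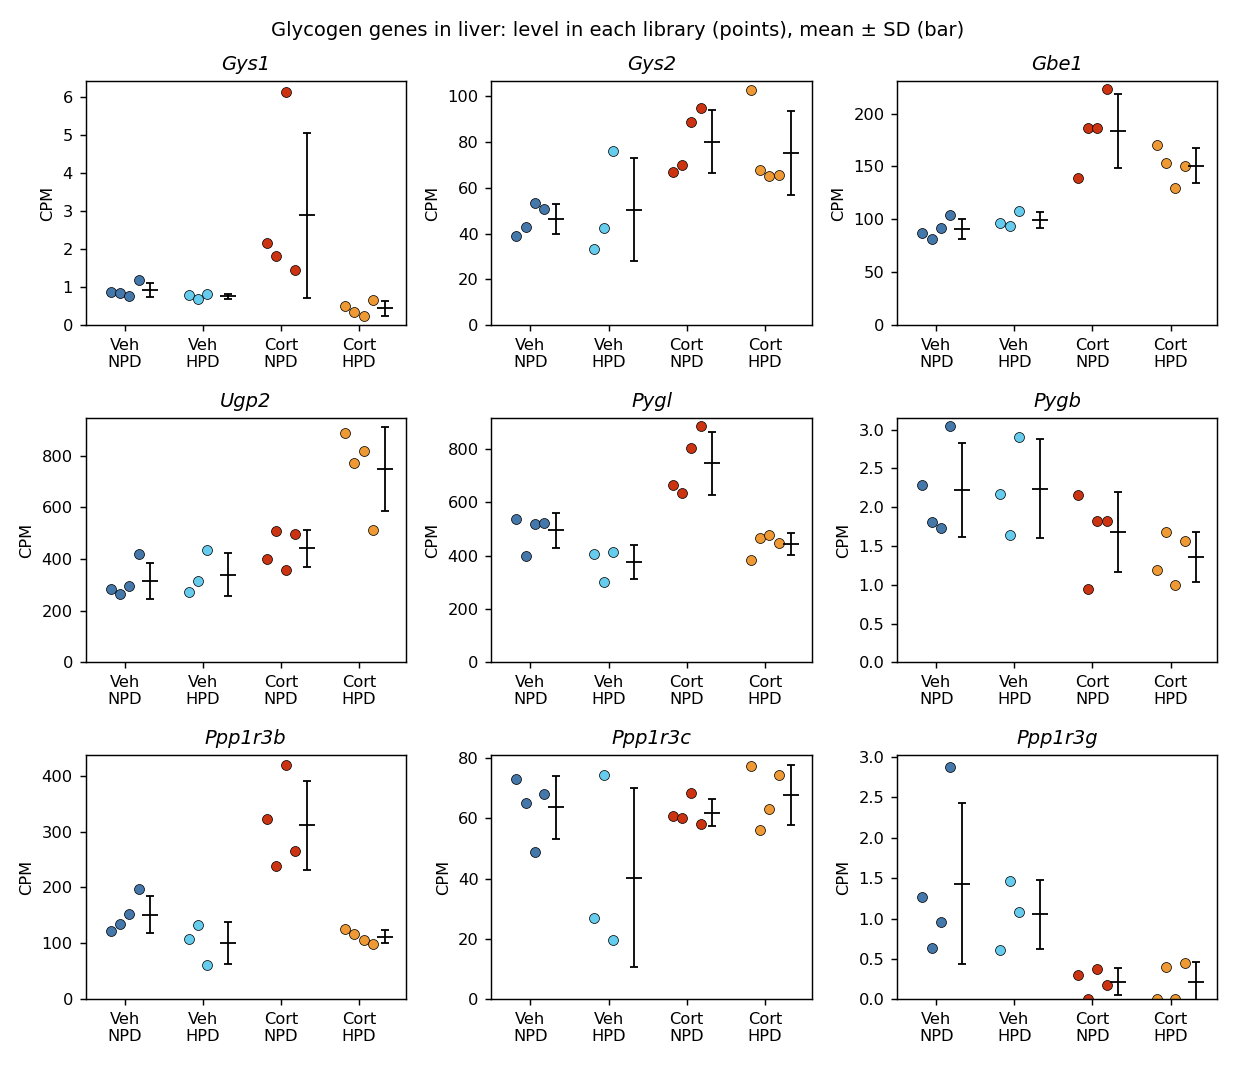
CPM of the 9 members in each of the 15 liver libraries (points, by group), with the group mean and SD as a bar beside them; each panel has its own linear axis from 0. All Cort NPD libraries of Gys1, Gys2, Gbe1, Pygl and Ppp1r3b lie above all Veh NPD libraries, and Ugp2 is highest in Cort HPD.

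In the liver of NPD-fed mice, cort raised genes of both synthesis and breakdown. Of the 9 members, 5 were higher (Gys1, Gys2, Gbe1, Pygl and Ppp1r3b), 1 was lower (Ppp1r3g) and 3 were not called. Ppp1r3g passed the filter for tested genes (minimum count 10) only through veh libraries. It could thus hardly be called other than lower with cort, and its call and lack of overlap are descriptive. Of all tested liver genes, 12.6% were called in this comparison, 6.84% as higher and 5.79% as lower. The median log2 fold change of the members was 0.59, against -0.01 over all tested genes. The libraries of the 6 called members did not overlap between the groups, as for 18.5% of all tested genes.

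Gbe1, the branching enzyme, was at 87.3, 81.5, 92.0 and 104 CPM in Veh NPD and at 139, 186, 186 and 224 CPM in Cort NPD. It rose by 1.01 on the log2 scale (SE 0.15, adjusted p = 8.0e-05, edgeR). Gys2, the liver synthase, was at 39.0, 42.9, 53.2 and 50.8 CPM in Veh NPD and at 67.0, 70.0, 88.7 and 94.8 CPM in Cort NPD. The lowest cort library of each gene lay above the highest veh library. Gys2 rose by 0.79 on the same scale (SE 0.22, adjusted p = 0.020, edgeR).

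Gys1, the muscle synthase, was near the limit of detection in liver. It was at 0.869, 0.849, 0.779 and 1.18 CPM in Veh NPD (8 to 14 counts) and at 2.15, 1.81, 6.13 and 1.46 CPM in Cort NPD (21 to 81 counts). Its rise on the log2 scale was 1.64 (SE 0.45, adjusted p = 0.018, edgeR), and the highest value came from replicate 3, the library that held 493 CPM of the muscle markers. Without that library it was 0.95 (adjusted p = 0.19), so the call rests on it, and the part of muscle RNA was not tested. Ugp2 was at 282, 264, 294 and 418 CPM in Veh NPD and at 401, 510, 359 and 495 CPM in Cort NPD, which overlapped, for a difference in log2 of 0.49 (SE 0.20, adjusted p = 0.11, edgeR). Without Veh NPD replicate 4, the highest veh library, Ugp2 was called at 0.65 (adjusted p = 0.040). That library was picked by its value of this gene, so the call is descriptive.

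Pygl, the liver phosphorylase, was at 539, 399, 519 and 522 CPM in Veh NPD and at 663, 634, 803 and 886 CPM in Cort NPD, which is 0.59 higher in log2 (SE 0.16, adjusted p = 0.015, edgeR). Pygb stayed at 0.949 to 3.04 CPM in the libraries of both groups, which overlapped. Ppp1r3b, the main glycogen-targeting subunit of liver, was at 122, 135, 152 and 197 CPM in Veh NPD and at 322, 238, 418 and 265 CPM in Cort NPD. The rise was 1.04 in log2 (SE 0.21, adjusted p = 0.0025, edgeR), and the groups did not overlap. Ppp1r3g, a subunit known for its change with feeding, was at 1.26, 0.637, 0.952 and 2.87 CPM in Veh NPD and at 0.308, 0, 0.379 and 0.182 CPM in Cort NPD (0 to 5 counts), which is a log2 change of -2.66 (SE 0.76, adjusted p = 0.023, edgeR). Ppp1r3c, a further targeting subunit, was at 48.7 to 73.0 CPM in Veh NPD and 58.2 to 68.5 CPM in Cort NPD. The groups overlapped for Ppp1r3c, and it was not called.

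The calls of Gbe1 and Ppp1r3b on the NPD held in every fit that left out 1 library. The others were lost in some, Gys1 without Veh NPD replicates 1 or 2 or Cort NPD replicate 3 (adjusted p 0.050 to 0.19), Gys2 without Veh NPD replicates 1 or 2 or Cort NPD replicates 3 or 4 (0.068 to 0.077), Pygl without Veh NPD replicate 2 or Cort NPD replicates 3 or 4 (0.051 to 0.073) and Ppp1r3g without Veh NPD replicate 4 or Cort NPD replicates 2 or 4 (0.059 to 0.10). With all 16 liver libraries, Gys2 (adjusted p = 0.19) and Pygl (adjusted p = 0.11) were not called. Markers of other cells also moved between these groups. The sum of 6 macrophage markers was 203 to 315 CPM in Veh NPD and 99.1 to 181 CPM in Cort NPD, that of 6 B and T cell markers was 2.96 to 5.61 and 0 to 0.486 CPM (Cd79a at 0 in all liver libraries, and Trbc2 alone at 2.51 to 4.27 and 0 to 0.231 CPM), and that of 4 bile duct markers was 13.9 to 24.2 and 33.5 to 56.4 CPM. The bile duct sum was mostly Sox9, at 11.6 to 21.6 and 30.5 to 53.8 CPM, whereas Krt19, Krt7 and Epcam were each at most 2.15 CPM. Their part in the results was not tested.

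In the liver of HPD-fed mice, 2 of the 9 members were higher with cort, Gbe1 and Ugp2, and 7 were not called. Of all tested genes 9.89% were called, 4.75% as higher and 5.14% as lower, and the median log2 fold change was 0.24 over the members and 0.00 over all tested genes. Ugp2, which makes UDP-glucose, was at 272, 315 and 433 CPM in Veh HPD and at 888, 772, 820 and 513 CPM in Cort HPD. All cort libraries lay above all veh libraries, and the rise in log2 was 1.14 (SE 0.22, adjusted p = 0.0016, edgeR). Gbe1 was at 97.0, 93.5 and 108 CPM in Veh HPD and at 170, 154, 129 and 150 CPM in Cort HPD, again without overlap, which is 0.60 higher in log2 (SE 0.16, adjusted p = 0.021, edgeR). Gbe1 was not called without Veh HPD replicates 1 or 2 (adjusted p 0.087 and 0.078), of which replicate 1 was the library with pancreas markers. Each of these fits had 2 Veh HPD libraries.

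Gys1 and Ppp1r3g were lower in all Cort HPD libraries than in all Veh HPD libraries, but neither was called. Of all tested genes, 21.2% did not overlap between these groups (10.7% higher and 10.5% lower). Gys1 was at 0.781, 0.691 and 0.811 CPM in Veh HPD and at 0.509, 0.349, 0.230 and 0.668 CPM in Cort HPD. Ppp1r3g was at 0.614, 1.47 and 1.08 CPM and at 0, 0.407, 0 and 0.445 CPM, which is a log2 change of -2.15 (SE 0.79, adjusted p = 0.091, edgeR). Both genes had at most 17 counts in a library of these groups, and Ppp1r3g passed the filter only through veh libraries. Ppp1r3b was at 107, 134 and 61.2 CPM in Veh HPD and at 125, 117, 106 and 99.6 CPM in Cort HPD, and Pygl at 407, 301 and 415 CPM and at 383, 468, 475 and 447 CPM. The groups overlapped for both, and neither was called. Pygb was at 2.18, 1.64 and 2.91 CPM in Veh HPD and at 1.19, 1.69, 0.995 and 1.56 CPM in Cort HPD, which overlapped (-0.72, SE 0.35, adjusted p = 0.22, edgeR).

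Single veh libraries decided the place of 2 further members on the HPD. Ppp1r3c was at 27.1, 74.3 and 19.7 CPM in Veh HPD and at 77.2, 56.1, 63.0 and 74.5 CPM in Cort HPD. Its difference in log2 was 0.75 (SE 0.32, adjusted p = 0.17, edgeR) and 1.55 (adjusted p = 6.5e-05) without Veh HPD replicate 2. Gys2 was at 33.3, 42.3 and 75.9 CPM in Veh HPD and at 103, 67.8, 65.1 and 65.5 CPM in Cort HPD. Its difference in log2 was 0.58 (SE 0.24, adjusted p = 0.13, edgeR) and 0.999 (adjusted p = 0.0083) without Veh HPD replicate 3. Both fits without a library rest on 2 Veh HPD libraries, so their small p-values are weak support.

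The scaling mattered for the liver on the HPD. The sum of the hepatocyte markers was 142208 to 247854 CPM in Cort HPD, above all other liver libraries (Alb alone at 98928 to 202190 CPM, against 33636 to 45054 CPM in Veh HPD), and that of 5 red blood cell markers was 5271 to 7622 CPM there against 1913 to 3469 CPM in Veh HPD and 1358 to 3544 CPM in Cort NPD. Their part in the results was not tested. With library totals in place of TMM factors, the median of all genes was at -0.24 for cort on the HPD and -0.18 for the HPD in cort, and the share of calls that were higher went from 48.0% to 17.8% and from 52.4% to 23.2%. Gbe1 on the HPD was then at 0.35 (adjusted p = 0.18), and Ugp2 kept its call.

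Whether cort changed a gene differently on the diets was tested by the interaction of diet and cort. In liver, 0 of the 9 members were called, and 0.113% of all genes were (0.0565% as higher and 0.0565% as lower, 14 genes in edgeR, with 1496 at an unadjusted p under 0.05 and 130 in DESeq2). The log2 difference between the cort changes, HPD minus NPD, was -2.43 (SE 0.71, adjusted p = 0.18, edgeR) for Gys1, -0.88 (SE 0.31, adjusted p = 0.26) for Ppp1r3b, 0.65 (SE 0.29, adjusted p = 0.36) for Ugp2 and 0.79 (SE 0.44, adjusted p = 0.49) for Ppp1r3c. Without Veh HPD replicate 2, which left 2 Veh HPD libraries, Ppp1r3c was called at 1.59 (adjusted p = 0.019). Gys2, Gbe1, Pygl, Pygb and Ppp1r3g were not called either. The calls in 1 diet and not in the other are therefore not shown to differ, apart from that fit.

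The diets were also compared directly. Among cort-treated mice, Gys1, Pygl and Ppp1r3b were lower and Ugp2 was higher in HPD liver, and 5 members were not called. Of all genes 5.88% were called (3.08% as higher, 2.80% as lower). The libraries of the 4 called members did not overlap, as for 13.3% of all genes. Those of Gys2, Gbe1, Pygb, Ppp1r3c and Ppp1r3g overlapped. Ppp1r3b went from 238 to 418 CPM in Cort NPD to 99.6 to 125 CPM in Cort HPD, which is a log2 change of -1.47 (SE 0.22, adjusted p = 3.8e-04, edgeR). Pygl went from 634 to 886 CPM to 383 to 475 CPM (-0.75, SE 0.16, adjusted p = 0.0063), and was not called with all 16 liver libraries (adjusted p = 0.083). Gys1 went from 1.46 to 6.13 CPM to 0.230 to 0.668 CPM (-2.70, SE 0.48, adjusted p = 0.0016) and remained called without the library with muscle markers (-2.02, adjusted p = 0.016). Ugp2 went the other way, from 359 to 510 CPM to 513 to 888 CPM (0.76, SE 0.20, adjusted p = 0.024). Its call was lost without Cort NPD replicates 1 or 3 or Cort HPD replicates 1 or 3 (adjusted p 0.053 to 0.085), with library totals (0.053) and with all 16 liver libraries (0.054). The comparisons of cort and of diet share the Cort NPD and Cort HPD libraries.

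Among veh-treated mice, 0 of the 9 members were called in liver, where 0.169% of all genes were (0.105% as higher and 0.0646% as lower, 21 genes in edgeR, with 1165 at an unadjusted p under 0.05 and 113 in DESeq2). The libraries of all 9 members overlapped, and 9.47% of all genes did not. Ppp1r3b differed by -0.59 in log2 (SE 0.23, adjusted p = 0.40, edgeR), Pygl of -0.40 (SE 0.17, adjusted p = 0.45) and Ppp1r3c of -0.66 (SE 0.32, adjusted p = 0.55). The other 6 members, Gys1, Gys2, Gbe1, Ugp2, Pygb and Ppp1r3g, had adjusted p of 0.86 to 0.99. Without Veh HPD replicate 2, which left 2 Veh HPD libraries, Ppp1r3c was called as lower at -1.45 (adjusted p = 0.0033).

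**Figure D2:**
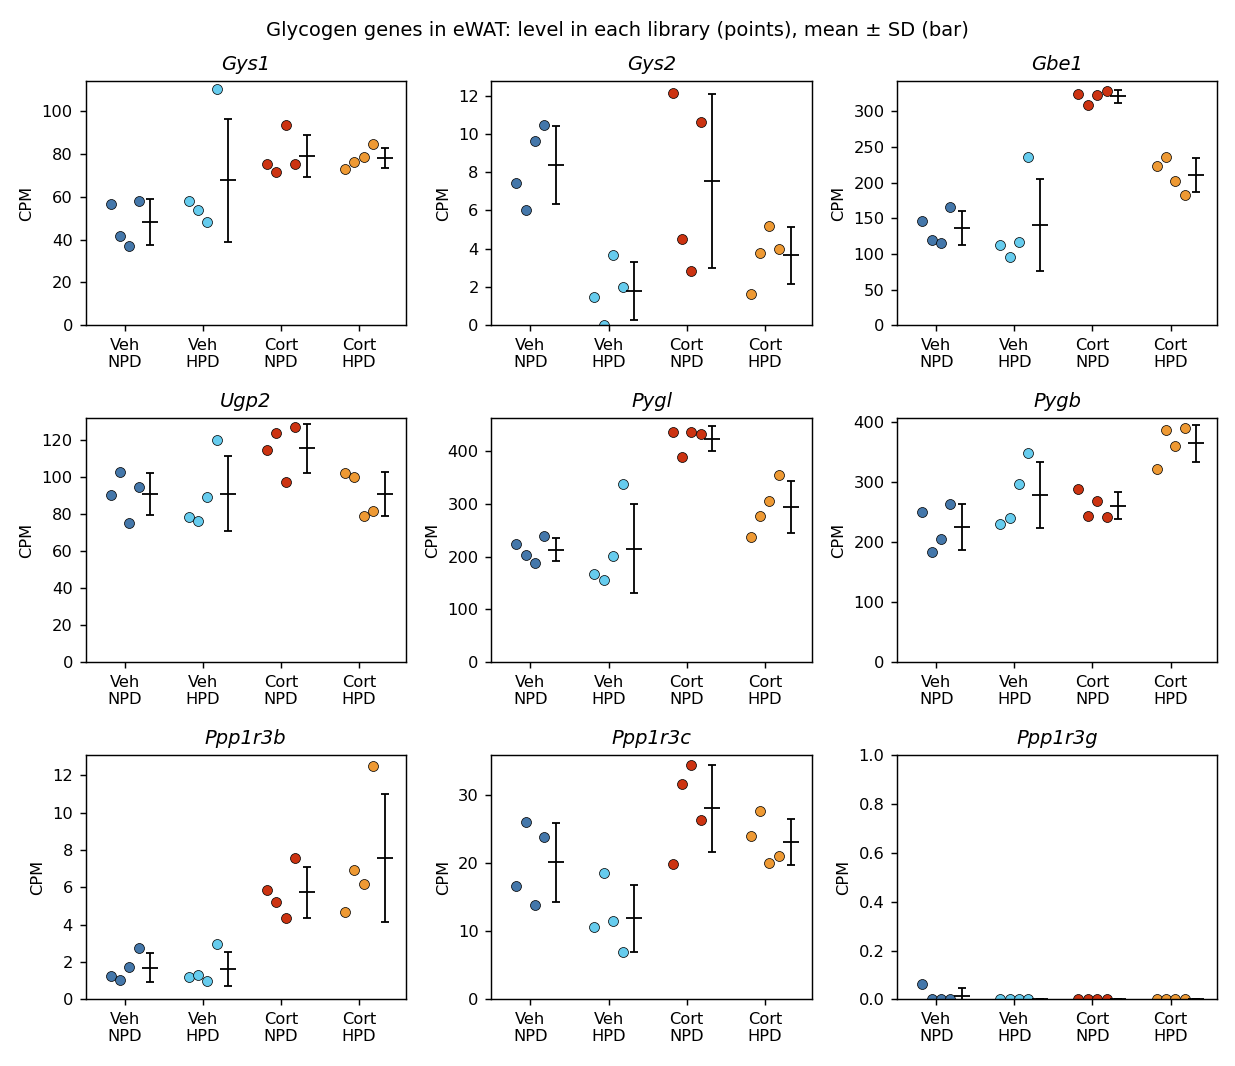
CPM of the 9 members in each of the 16 eWAT libraries (points, by group), with the group mean and SD as a bar; each panel has its own linear axis from 0. Gbe1 and Pygl are highest in Cort NPD, Ppp1r3b is higher in both cort groups, and Ppp1r3g is at 0 in all libraries but one.

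In eWAT on the NPD, cort raised 4 of the 8 tested members, Gys1, Gbe1, Pygl and Ppp1r3b, and 0 were lower. Of all tested eWAT genes 7.98% were called, 4.05% as higher and 3.93% as lower. The median log2 fold change was 0.59 over the tested members and -0.02 over all tested genes. The libraries of the 4 called members did not overlap, as for 14.9% of all genes.

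Gbe1 was at 146, 119, 116 and 166 CPM in Veh NPD and at 324, 308, 323 and 329 CPM in Cort NPD, which is 1.23 higher in log2 (SE 0.21, adjusted p = 9.3e-04, edgeR). Pygl was at 223, 203, 188 and 239 CPM in Veh NPD and at 436, 388, 437 and 431 CPM in Cort NPD, which is 0.99 higher in log2 (SE 0.18, adjusted p = 0.0011). The spread within Cort NPD was small beside the distance between the groups for both genes. Gys1, the synthase that predominates in fat, was at 56.5, 41.6, 36.8 and 58.2 CPM in Veh NPD and at 75.4, 71.5, 93.5 and 75.3 CPM in Cort NPD, which is 0.71 higher in log2 (SE 0.21, adjusted p = 0.035). Of the 16 fits without 1 library, 6 lost that call, those without Veh NPD replicates 2 or 3 or any of the Cort NPD libraries (adjusted p 0.051 to 0.12).

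Ppp1r3b was low in eWAT but rose on both diets. It was at 1.24, 1.04, 1.75 and 2.76 CPM in Veh NPD and at 5.84, 5.23, 4.34 and 7.57 CPM in Cort NPD (55 to 86 counts), which is 1.75 higher in log2 (SE 0.45, adjusted p = 0.012, edgeR). Pygb was at 183 to 263 CPM in Veh NPD and 241 to 288 CPM in Cort NPD, Ugp2 at 75.5 to 103 and 97.6 to 127 CPM, Ppp1r3c at 13.9 to 26.1 and 19.8 to 34.4 CPM, and Gys2 at 6.03 to 10.5 and 2.84 to 12.2 CPM. Each of these overlapped between the groups and none was called. Across these groups the sum of 7 skeletal muscle markers was 62.3 to 199 CPM in Veh NPD and 12.9 to 27.3 CPM in Cort NPD, and that of 8 hepatocyte markers 917 to 2157 and 2082 to 3997 CPM. Single genes made up most of both sums, Acta1 at 50.2 to 197 and 8.99 to 23.0 CPM, and Cyp2e1 at 853 to 2101 and 2012 to 3932 CPM, whereas Alb was at 47.1 to 68.5 and 51.7 to 72.7 CPM and Ttr, Apoa2, Serpina1a, Tat and Fgb were each at most 2.76 CPM. Their part in the results was not tested.

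In eWAT on the HPD, the targeting subunits Ppp1r3b and Ppp1r3c were higher with cort, and 6 tested members were not called. Of all genes 6.09% were called, 3.46% as higher and 2.63% as lower, and the median log2 fold change was 0.52 over the tested members and 0.00 over all genes. Ppp1r3b was at 1.21, 1.31, 0.978 and 2.98 CPM in Veh HPD and at 4.68, 6.95, 6.18 and 12.5 CPM in Cort HPD, without overlap, which is 2.23 higher in log2 (SE 0.45, adjusted p = 0.0023, edgeR). The highest value was in replicate 4, the library with epididymis markers, and without it the log2 fold change was 1.87 (adjusted p = 0.017). Ppp1r3c was at 10.6, 18.6, 11.4 and 6.94 CPM in Veh HPD and at 24, 27.6, 20.1 and 21.0 CPM in Cort HPD, also without overlap, as for 11.3% of all genes (0.95, SE 0.25, adjusted p = 0.020). Its call was lost without Veh HPD replicates 1 or 3 or Cort HPD replicates 1 or 2 (adjusted p 0.051 to 0.074), and was kept without Cort HPD replicate 4.

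Veh HPD replicate 4 of eWAT was the highest of its group in 6 of the 8 tested members. Gbe1 was at 113, 95.8, 116 and 237 CPM in Veh HPD and at 223, 237, 202 and 183 CPM in Cort HPD, and Pygl at 167, 155, 201 and 338 CPM and at 238, 277, 304 and 355 CPM. Gys1 was at 57.8, 53.8, 48.4 and 110 CPM in Veh HPD and at 73.1, 76.3, 78.5 and 84.4 CPM in Cort HPD, and Pygb at 230, 241, 296 and 348 CPM and at 322, 386, 360 and 389 CPM. In each of the 4 genes the veh group reached into the cort group through replicate 4. With all libraries, the log2 fold changes of Gbe1 (0.59, SE 0.21, adjusted p = 0.11, edgeR), Pygl (0.45, SE 0.18, adjusted p = 0.16), Pygb (0.39, SE 0.14, adjusted p = 0.10) and Gys1 (0.21, SE 0.20, adjusted p = 0.65) were not called. Without Veh HPD replicate 4, Gbe1 (0.96, adjusted p = 8.6e-06), Pygl (0.75, adjusted p = 2.7e-04), Pygb (0.51, adjusted p = 0.012) and Gys1 (0.55, adjusted p = 0.020) were called, and 6 members were higher. That library was picked out by its high values of these same members. Leaving it out raises their fold changes by design, so these calls are descriptive. Gys2 was at 0 to 3.67 CPM in Veh HPD and 1.61 to 5.19 CPM in Cort HPD, and Ugp2 at 76.4 to 120 and 79.3 to 102 CPM, which overlapped and were not called. The sum of 5 red blood cell markers was 12684 to 25856 CPM in Cort HPD and 5251 to 9273 CPM in Veh HPD, and that of 6 adipocyte markers 27728 to 33640 and 38122 to 51249 CPM, and their part in the results was not tested.

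The interaction of diet and cort called 0 of the 8 members tested in eWAT and 0.0132% of all genes (0.00658% as higher and 0.00658% as lower, 2 genes in edgeR, with 784 at an unadjusted p under 0.05 and 14 in DESeq2). The log2 difference, HPD minus NPD, was -0.64 (SE 0.29, adjusted p = 0.95, edgeR) for Gbe1 and -0.54 (SE 0.25, adjusted p = 0.95) for Pygl. For Gys1, Gys2, Ugp2, Pygb, Ppp1r3b and Ppp1r3c the adjusted p was 0.97 to 0.99.

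Among cort-treated mice, 0 of the 8 tested members of eWAT were called between the diets, and 0.487% of all genes were (0.204% as higher and 0.283% as lower, 74 genes in edgeR, with 1490 at an unadjusted p under 0.05 and 195 in DESeq2). The libraries of Gbe1, Pygl and Pygb did not overlap, as for 6.66% of all genes, and those of Gys1, Gys2, Ugp2, Ppp1r3b and Ppp1r3c did. Gbe1 was at 308 to 329 CPM in Cort NPD and 183 to 237 CPM in Cort HPD (-0.61, SE 0.21, adjusted p = 0.31, edgeR). Pygl was at 388 to 437 and 238 to 355 CPM (-0.53, SE 0.18, adjusted p = 0.29). Pygb went the other way, from 241 to 288 CPM to 322 to 389 CPM (0.48, SE 0.14, adjusted p = 0.14). These 3 genes were called when only the Cort NPD and Cort HPD libraries were fitted (adjusted p 0.0037 to 0.021) and when Veh HPD replicate 4, which enters the shared estimate of the spread, was left out (0.0062 to 0.044). Veh HPD replicate 4 was picked out by its own values of the members, so the calls without it are weak support. Pygb was also called in DESeq2 (adjusted p = 0.047). Between these groups the sum of the red blood cell markers was 3619 to 6491 CPM in Cort NPD and 12684 to 25856 CPM in Cort HPD, without overlap, and Cort HPD replicate 4 was the library with 5571 CPM of epididymis and testis markers. Their part in the results was not tested.

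Among veh-treated mice, 0 of the 8 members tested in eWAT were called, and 0.0593% of all genes were (0.0132% as higher and 0.0461% as lower, 9 genes in edgeR, with 1219 at an unadjusted p under 0.05 and 126 in DESeq2). Gys2 was at 7.41, 6.03, 9.61 and 10.5 CPM in Veh NPD and at 1.46, 0, 3.67 and 2.01 CPM in Veh HPD, where all HPD libraries lay below all NPD libraries (-2.24, SE 0.73, adjusted p = 0.38, edgeR). Ppp1r3c was at 13.9 to 26.1 and 6.94 to 18.6 CPM, which overlapped (-0.75, SE 0.25, adjusted p = 0.34). The libraries of Gys1, Gbe1, Ugp2, Pygl, Pygb and Ppp1r3b overlapped as well, with adjusted p of 0.53 and above, and 4.28% of all genes did not overlap.

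**Figure D3:**
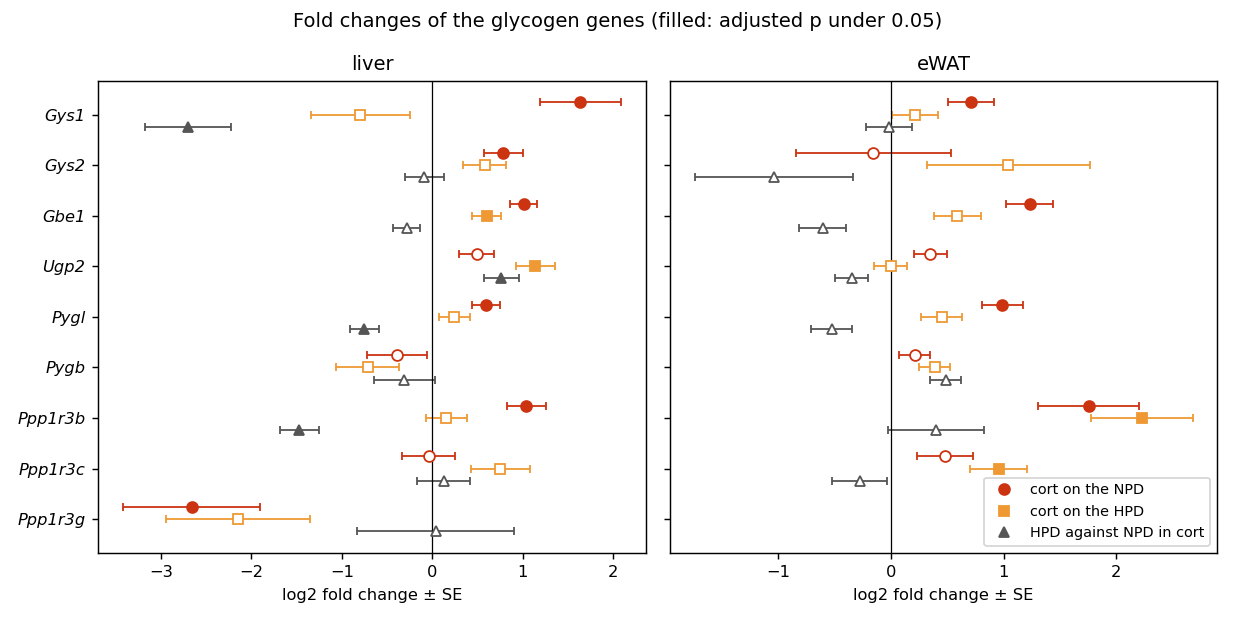
Log2 fold changes with SE of the members for cort on the NPD (circles), cort on the HPD (squares) and HPD against NPD in cort-treated mice (triangles), in liver and eWAT on their own linear axes; filled symbols were called (adjusted p under 0.05), and Ppp1r3g was not tested in eWAT. In liver, 3 triangles to the left and that of Ugp2 to the right are filled, and in eWAT no triangle is.

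The cort changes of liver and eWAT were compared in a fit of both tissues (16482 genes), as the liver change minus the eWAT change. On the NPD, 0 of the 9 members were called, where 3.85% of all genes were (2.51% as higher, 1.35% as lower, 635 genes in edgeR, with 2721 at an unadjusted p under 0.05 and 422 in limma voom). The difference was 0.96 (SE 0.46, adjusted p = 0.29, edgeR) for Gys1, and 0.29 (adjusted p = 0.83) without the liver library with muscle markers. Of the other members with a difference, Gys2, Ugp2, Pygl, Pygb and Ppp1r3c had adjusted p of 0.35 to 0.83. The intervals were wide, for Gbe1 from -0.70 to 0.34 and for Ppp1r3b from -1.55 to 0.21 (95%), so that like changes in the tissues are not shown.

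On the HPD, 3 members differed between the tissues, and 3.12% of all genes did (1.11% as higher, 2.01% as lower). The cort change of Ugp2 was higher in liver than in eWAT by 1.10 (SE 0.27, adjusted p = 0.017, edgeR). Ugp2 in eWAT was at 76.4 to 120 CPM in Veh HPD and 79.3 to 102 CPM in Cort HPD, whereas the liver libraries of these groups did not overlap. The change of Ppp1r3b was lower in liver, with a difference of -2.12 (SE 0.46, adjusted p = 0.0076) and of -1.72 (adjusted p = 0.021) without the eWAT library with epididymis markers. That of Pygb was also lower in liver, at -1.14 (SE 0.31, adjusted p = 0.031), with 13 to 43 counts per liver library of these groups. The call of Ugp2 was lost without liver Veh HPD replicates 1 or 2 (adjusted p 0.073 and 0.055), and that of Pygb in 9 of the 31 fits that left out 1 library (adjusted p 0.057 to 0.16, those without eWAT Veh HPD replicates 1 or 2, eWAT Cort HPD replicates 2, 3 or 4, liver Veh HPD replicates 1 or 3 or liver Cort HPD replicates 1 or 3). In limma voom Pygb (adjusted p = 0.32) and Ppp1r3b (adjusted p = 0.051) were not called. With library totals the median of all genes in this comparison was at -0.24, and the share of calls that were higher went from 35.6% to 19.8%. Gys1, Gys2, Gbe1, Pygl and Ppp1r3c were not called (adjusted p of 0.40 and above), and that of Ppp1r3c was -0.24 (SE 0.43, adjusted p = 0.90). No difference is given for Ppp1r3g, which was at the floor in eWAT.

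The balance between related genes varied as well, and is given as shares of counts with no test. In eWAT, Pygb made up 51.2% ± 2.59 (SD, n = 4) of the Pygb and Pygl counts in Veh NPD, 57.3% ± 4.48 in Veh HPD, 38.1% ± 1.65 in Cort NPD and 55.5% ± 2.79 in Cort HPD. The 4 Cort NPD libraries, at 35.9% to 39.8%, lay below all other eWAT libraries, at 47.3% to 60.8%. Veh HPD replicate 4 was at 50.8%. In liver Pygb made up 0.149% to 0.695% of these counts. Gys1 made up 79.3% to 100% of the Gys1 and Gys2 counts in eWAT. In liver it made up 1.96% ± 0.371 in Veh NPD, 1.65% ± 0.621 in Veh HPD (n = 3), 3.41% ± 2.15 in Cort NPD and 0.591% ± 0.288 in Cort HPD, and the highest share, 6.47%, was in the library with muscle markers.

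**Figure D4:**
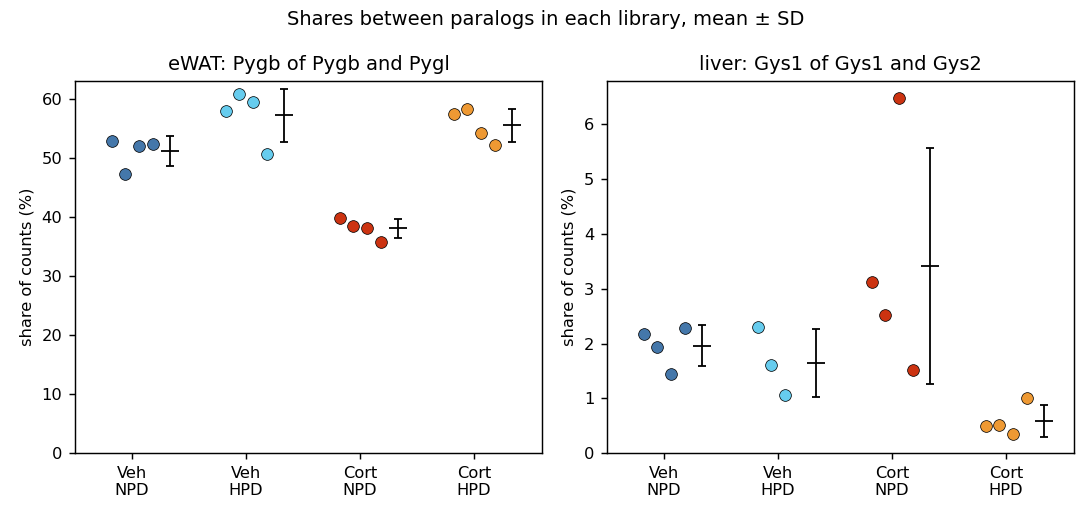
Share of counts in percent, per library (points) with the group mean and SD (bar), for Pygb of Pygb and Pygl in eWAT and for Gys1 of Gys1 and Gys2 in liver; both axes are linear from 0. The 4 eWAT Cort NPD libraries lie at 35.9% to 39.8%, below all others, and the liver point at 6.47% is the library with muscle markers.

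The surrounding pathway was read from 46 other genes, of which 41 passed the filter in each tissue. On the NPD, cort called 5 as higher and 1 as lower in liver, which is 14.6% against 12.6% of all genes, and the same numbers in eWAT, 14.6% against 7.98%. On the HPD it called 3 as higher and 1 as lower in liver, 9.76% against 9.89% of all genes, and 3 as higher and 0 as lower in eWAT, 7.32% against 6.09%. In liver on both diets and in eWAT on the HPD these shares are near those of all genes. The diets alone called 0 among veh-treated mice in either tissue, and 1 in liver and 0 in eWAT among cort-treated mice, and the interaction called 0. Their median log2 fold changes were 0.15 and 0.01 in liver and 0.13 and 0.01 in eWAT, on the NPD and HPD in turn. None of the 6 other genes listed under synthesis were called in either tissue for cort on either diet. They are glycogenin (Gyg), Pgm1, Pgm2, Stbd1, Epm2a and Nhlrc1, a list broader than the enzymes of synthesis.

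Among the 12 genes of glucose uptake, phosphorylation and release, all tested in liver and 9 in eWAT, cort called 4 in liver on either diet, and 4 on the NPD and 1 on the HPD in eWAT. In liver, Gpi1, which interconverts glucose 6-phosphate and fructose 6-phosphate, rose with cort by 1.71 (SE 0.22, adjusted p = 2.4e-05, edgeR) on the NPD and by 1.18 (SE 0.24, adjusted p = 0.0035) on the HPD. Slc37a4, which carries glucose 6-phosphate into the endoplasmic reticulum, rose by 1.08 (SE 0.20, adjusted p = 7.2e-04) and 1.35 (SE 0.22, adjusted p = 3.2e-04). On the HPD, G6pc, the catalytic unit of glucose 6-phosphatase, was higher by 1.17 (SE 0.26, adjusted p = 0.0059). The glucose transporters Slc2a2 (0.999, SE 0.20, adjusted p = 0.0017) and Slc2a4 (2.59, SE 0.78, adjusted p = 0.034) were called on the NPD, of which Slc2a4 is named after its values were seen. Slc2a4 was at 1.68 (adjusted p = 0.18) without the library with muscle markers. Its call was also lost without Veh NPD replicates 1, 2 or 3 or Cort NPD replicate 4, in limma voom, with no filter, with all 16 liver libraries and with only the 2 groups compared. Of the 5 tested hormone receptors, Insr was higher with cort on the NPD (0.74, SE 0.19, adjusted p = 0.010) and lower with the HPD among cort-treated mice (-0.70, SE 0.18, adjusted p = 0.028), and Adrb3 was lower with cort on the NPD (-1.83, SE 0.40, adjusted p = 0.0038). The first call of Insr was lost without Cort NPD replicate 3, the library with muscle markers (0.57, adjusted p = 0.062, edgeR). The second was lost in 5 of 15 fits without 1 library (Cort NPD replicates 3 or 4 or Cort HPD replicates 1, 2 or 4), with all 16 liver libraries and with only the 2 groups compared. Without the library with muscle markers it was -0.53 (adjusted p = 0.13, edgeR).

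In eWAT, the insulin-sensitive transporter Slc2a4 (1.14, SE 0.20, adjusted p = 0.0012, edgeR), hexokinase 2, Hk2 (0.87, SE 0.13, adjusted p = 5.3e-05), and Gpi1 (0.62, SE 0.11, adjusted p = 5.5e-04) were higher with cort on the NPD, and Hk1 was lower (-0.74, SE 0.22, adjusted p = 0.031). The call of Hk1 was lost in 7 of 16 such fits, those without Veh NPD replicates 1, 2 or 3 or any of the Cort NPD libraries. Ppp1r3d, a targeting subunit of the same family as Ppp1r3b, rose on the NPD by 1.40 (SE 0.29, adjusted p = 0.0027) and likewise on the HPD by 1.40 (SE 0.30, adjusted p = 0.0036). On the HPD, Hk2 (0.55, SE 0.13, adjusted p = 0.0082) and Gsk3a, a kinase that phosphorylates glycogen synthase (0.51, SE 0.14, adjusted p = 0.029), were also higher. The call of Gsk3a was lost in 5 of 16 such fits (Veh HPD replicates 1 or 2 or Cort HPD replicates 1, 2 or 4). Between the tissues (44 of these genes tested), the cort change on the NPD was higher in liver for Gpi1 (1.13, SE 0.25, adjusted p = 0.0057) and for Prkacb, a catalytic subunit of protein kinase A (0.84, SE 0.23, adjusted p = 0.032, lost in 13 of 31 fits without 1 library, 9 of eWAT and 4 of liver, with library totals and with all 16 liver libraries), and lower for Adrb3 (-1.37, SE 0.38, adjusted p = 0.034, lost without eWAT Veh NPD replicate 4, eWAT Cort NPD replicate 3, liver Veh NPD replicate 1 or liver Cort NPD replicates 2 or 4, with library totals, in limma voom and with all 16 liver libraries). It was higher in liver on the HPD for Slc37a4 (1.38, SE 0.34, adjusted p = 0.017, and not called without liver Veh HPD replicate 1).

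The genes with the most similar pattern were taken for 2 members per tissue, those called in the most comparisons with ties broken by the smallest p, by Pearson's r of log2 CPM over its libraries. In the 15 liver libraries, Gbe1 was close in pattern to Abcb1a (r = 0.963) and Rhoq (0.959), and Ppp1r3b most like Glyctk (0.865), Trp53inp2 (0.857) and Zadh2 (0.857). In the 16 eWAT libraries, Gbe1 was most like Pgd (0.976), Thrsp (0.955) and Mrap (0.953), and Ppp1r3b most like Cdc42ep4 (0.934), Serpina3m (0.928) and Hspb7 (0.928). The points share the groups and the libraries, so these values describe the pattern and carry no test.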

How the data were processed

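The deposited table holds raw counts for each Ensembl gene in 32 QuantSeq 3′ libraries, not normalized by the authors. Per the labels, the build was GRCm38 (mm10), and the submitters' processing notes name R 4.0.3 and limma. The aligner and counter are not given in the sources used here. Symbols and positions were taken from GENCODE for 47224 of 47643 gene IDs. Liver Veh HPD replicate 4, which the study removed, was left out.

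Each tissue was fitted with 1 mean per group in edgeR 4.0.16 (R 4.3.3) with filterByExpr (minimum count 10, minimum total 15), TMM factors and robust quasi-likelihood tests, and both tissues were fitted together for their difference. The biological coefficient of variation was 0.228 in liver and 0.372 in eWAT. Alternatives were RLE factors, library totals, DESeq2 1.42.0, limma 3.58.1 voom, no filter, a block for the replicate number, all 16 liver libraries, only the compared groups, and each library left out. Steps were tested on simulated data with large changes, well-counted genes and a fixed spread below that of eWAT. That setting is easier than the data of eWAT and of members with few counts.

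The members and lists were chosen with earlier results of these data known. All 9 members are named in each comparison, Ppp1r3g only where it was above the floor. From the other lists, up to 3 called genes per direction with the smallest p were named, except some that are counted but not reported here by name. The CCAAT motif and the number of bases shown were chosen after the data were seen. Labels do not say whether same-numbered liver and eWAT libraries came from 1 mouse. With 3 or 4 mice per group, p-values measure the spread between these samples. Depth limits genes under about 10 counts per library.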

Additional observations from a re-analysis of the deposited data

Results flagged for a closer look

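In 60 groups of 4 libraries, 8 held a library whose gap to the others was large against the group's range, where chance gives about 1 in 20 groups. That rate holds for independent normal values, whereas the genes share libraries and the flag of Ppp1r3g rests on 1 count. Whether 8 is more than chance was not tested. In eWAT Veh HPD, replicate 4 was the high one for Gys1 (110 CPM, others 48.4 to 57.8), Gbe1 (237 CPM, others 95.8 to 116) and Ppp1r3b (2.98 CPM, others 0.978 to 1.31). Gys1 was at 6.13 CPM in liver Cort NPD replicate 3, the library with muscle markers, against 1.46 to 2.15 CPM in the others. Gys2 was at 103 CPM in liver Cort HPD replicate 1, above 65.1 to 67.8 CPM in the others. Pygl was low in liver Veh NPD replicate 2 (399 CPM, others 519 to 539) and in eWAT Cort NPD replicate 2 (388 CPM, others 431 to 437). Ppp1r3g was at 0.0618 CPM in eWAT Veh NPD replicate 1, which is 1 count, and at 0 in the others.

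The cort change on the HPD differed between liver and eWAT, by the test of the difference in edgeR, for Ugp2 (1.10), Pygb (-1.14) and Ppp1r3b (-2.12). In the liver library that was not used, Veh HPD replicate 4, Pygb was at 14.2 CPM, against 0.949 to 3.04 CPM in the 15 liver libraries used. Other members lay below all used liver libraries there. They were Gys2 (13.5 CPM, lowest used 33.3), Gbe1 (46.7, lowest used 81.5), Pygl (168, lowest used 301), Ppp1r3b (35.8, lowest used 61.2) and Ppp1r3c (7.16, lowest used 19.7). Gys1, Ugp2 and Ppp1r3g were not outside the used range on the high side or below it on the low side.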

How the results depend on the processing

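Of 49 member fold changes followed, those called or at least 2 SE from 0, 0 changed direction in any alternative. Over the alternatives that left out no library, 338 values stayed on their side of the threshold, 10 calls were lost and 11 were gained. Over the fits that left out 1 library these numbers were 768, 40 and 12.

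The number of members called moved by more than 1.5 times in few settings. For cort on the HPD in liver it was 2, and 1 with library totals and 1 with the replicate block. For the HPD in cort-treated liver it was 4, and 2 with all liver libraries. For cort on the HPD in eWAT it was 2, and 4 with the replicate block. For the HPD in cort-treated eWAT it was 0, and 1 in DESeq2 and 3 with only the 2 groups compared. For the tissue difference on the HPD it was 3, and 1 in limma voom. Leaving out 1 library gave, in liver, 3 to 6 members for cort on the NPD, 1 to 3 for cort on the HPD, 0 to 1 for the HPD in veh, 3 to 4 for the HPD in cort and 0 to 1 for the interaction. In eWAT it gave 3 to 4, 1 to 6, 0 to 0, 0 to 3 and 0 to 0 in the same order, and 0 to 0 on the NPD and 1 to 3 on the HPD for the tissue difference.

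Counts over all genes differed by more than 1.5 times from the reported ones as follows. In liver, cort on the NPD gave 998 genes with all liver libraries (1565 reported), the HPD in veh 113 in DESeq2, 56 with no filter and 7 with all liver libraries (21 reported), the HPD in cort 371 with all liver libraries (729 reported), and the interaction 130 in DESeq2, 72 with no filter, 23 with library totals, 9 with RLE factors, 3 in limma voom and 1 with all liver libraries (14 reported). In eWAT, the HPD in veh gave 126 in DESeq2, 30 with no filter, 24 in limma voom, 16 with library totals and 4 with only the 2 groups (9 reported), the HPD in cort 195 in DESeq2 and 165 with only the 2 groups (74 reported), and the interaction 14 in DESeq2, 9 with the replicate block, 4 with no filter and 0 with library totals or in limma voom (2 reported). The tissue difference gave 422 in limma voom on the NPD (635 reported) and 842 in DESeq2 on the HPD (514 reported). Leaving out 1 library moved these counts past the same limit in 1 of 15 fits for cort on the HPD in liver (714 without Veh HPD replicate 1, 1226 reported), in 1 of 15 for the HPD in cort in liver (356 without Cort NPD replicate 3) and in 1 of 16 for cort on the HPD in eWAT (581 without Veh HPD replicate 1, 925 reported). It did so in 14 of 15 and 12 of 15 fits for the HPD in veh (5 to 40) and the interaction (2 to 39) in liver, and in 4, 6 and 14 of 16 for the HPD in veh (5 to 64), the HPD in cort (26 without Cort NPD replicate 1 to 124 without Veh HPD replicate 4) and the interaction (0 to 6) in eWAT. The shares of all genes called rest on these counts. The cause was not tested. With library totals, the share of calls that were higher also moved for cort on the NPD in eWAT (50.7% to 36.1%), for the HPD in veh (61.9% to 78.6% in liver and 22.2% to 37.5% in eWAT), for the HPD in cort in eWAT (41.9% to 53.4%) and for the liver interaction (50% to 21.7%, with the median of all genes at -0.22). The RLE factors moved it for the liver interaction (50% to 66.7%). For cort on the NPD in eWAT the median of all genes was at -0.11 with library totals.

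The replicate numbers did not pass the check for pairing, in which every same-number pair needed a correlation of deviations over 0.1. In eWAT 1 of 24 same-number pairs and in liver 3 of 21 passed it, and between liver and eWAT of the same group 0 of 15 did, with a median of 0.015 against -0.0073 for other numbers. A library correlated best with one of its own number in 4 of 16, 4 of 15 and 16 of 31 cases in turn. Numbers without meaning would give about 1 in 4, which the share between the tissues exceeded. The check therefore does not show that same-numbered liver and eWAT libraries came from different mice. The main comparison of the tissues took them as independent. The replicate block left Gbe1 with cort on the HPD at 0.55 in liver (adjusted p = 0.051) and called it in eWAT at 0.66 (adjusted p = 0.040), together with Pygl at 0.49 (adjusted p = 0.049), and it changed no other call of a member. Levels of a few counts, those of Gys1, Pygb and Ppp1r3g in liver, limit what depth can show.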
